A study of Mus musculus with 4 samples.

Results

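The Ifi200 cluster is a block of neighbouring genes on mouse chromosome 1 that encode the PYHIN proteins, and it was followed here through the response of CD4+ T cells to interferon alpha (IFNa). The members considered were 8 genes chosen by name, Ifi203, Ifi204, Ifi208, Ifi209, Ifi213, Ifi214, Aim2 and Mndal. Of these, 6 had a row of their own among the 19752 genes named singly on the array, and all 6 were among the 10699 genes bright enough to be tested. Ifi204 shared its row with Ifi211, and no row carried the symbol Mndal. CD4+ T cells had been taken from spleens of 6 week old male C57BL/6 mice by negative selection and activated for 48 h with CD3/28 beads. Baseline cells had no cytokine (2 arrays), and the others were cultured with IFNa at 100 U/ml for 2 h (1 array) or 8 h (1 array). All groups share the bead activation. Untreated cells kept in parallel for 2 h or 8 h were not analysed here, and an effect of IFNa cannot be told apart from one of the added culture time. The preparation label of the IFNa samples also mentions JAK inhibitors with a plus or minus sign, and their other labels name the cytokine alone.

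PYHIN proteins carry a pyrin domain, which joins proteins into signalling assemblies, a HIN domain, which binds DNA, or both. Aim2 is the best understood member, since it binds double-stranded DNA in the cytosol and recruits the adaptor Pycard and the protease Casp1 into an inflammasome. Many promoters that respond to type I interferon hold an interferon-stimulated response element, and PYHIN genes are known as interferon-induced genes in mouse leukocytes.

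The stretches of promoter are shown first because they set out which members have promoters that are near copies of each other. RefSeq promoter windows of the build GRCm38.p6, which run from 250 bases before each gene's start to 50 bases after it, were on hand for 7 of the 8 members (none for Ifi204). The 120 bases just before the start are given below, 5′ to 3′ on the gene's own strand. Capitals mark the core of the response element, searched as GAAA, any 2 bases and GAAA again, and in Ifi209 the 10 bases that align with them in Ifi214.
Ifi208, chr1:173673545-173673664, plus strand: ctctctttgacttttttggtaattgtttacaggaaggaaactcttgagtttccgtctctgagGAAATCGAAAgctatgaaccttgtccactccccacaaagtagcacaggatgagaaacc
Ifi213, chr1:173599273-173599392, minus strand: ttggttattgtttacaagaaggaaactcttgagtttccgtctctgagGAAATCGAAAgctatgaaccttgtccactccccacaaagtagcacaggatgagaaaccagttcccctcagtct
Ifi214, chr1:173535958-173536077, minus strand: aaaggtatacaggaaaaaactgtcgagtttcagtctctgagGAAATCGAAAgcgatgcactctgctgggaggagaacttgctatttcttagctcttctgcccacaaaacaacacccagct
Ifi209, chr1:173630739-173630858, plus strand: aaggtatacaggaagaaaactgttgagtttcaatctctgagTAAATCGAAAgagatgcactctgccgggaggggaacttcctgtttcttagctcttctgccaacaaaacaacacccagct
Ifi203, chr1:173942493-173942612, minus strand: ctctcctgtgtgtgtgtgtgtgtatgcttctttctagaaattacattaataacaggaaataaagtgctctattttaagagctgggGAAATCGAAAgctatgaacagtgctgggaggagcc
Mndal, chr1:173880188-173880307, minus strand: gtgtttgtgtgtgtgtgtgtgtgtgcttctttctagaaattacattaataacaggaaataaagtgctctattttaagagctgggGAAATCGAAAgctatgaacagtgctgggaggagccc
Aim2, chr1:173420484-173420603, plus strand: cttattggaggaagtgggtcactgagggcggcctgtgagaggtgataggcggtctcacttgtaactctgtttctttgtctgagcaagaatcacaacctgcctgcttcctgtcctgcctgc

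Among the 7 promoters were 3 pairs of near copies, with Aim2 in none of them. In global alignments of the whole windows, Ifi208 and Ifi213 shared 282 of 300 bases, Ifi214 and Ifi209 shared 287, and Ifi203 and Mndal shared 282. The other 18 pairs among these 7 genes were 53.7% to 68.0% identical. The core lay on the gene's own strand in 5 members, as the same 10 letters each time, 79 bases before the start in Ifi214, 73 in Ifi213, 58 in Ifi208, 36 in Mndal and 35 in Ifi203. Ifi203 and Mndal each have 2 windows, from different starts. The window with the core on the gene's own strand was chosen for printing and alignment. The other window of Ifi203 held no match, and that of Mndal held the core on the other strand. Searched on both strands, the core occurs in 3.44% of all 32851 promoter windows. It was not particular to the members within the locus. The same 10 letters lay on the gene's own strand in Ifi206 and Ifi207, 40 and 41 bases before the start. Ifi211 and Ifi205 held the core on their own strand as GAAATTGAAA, and Ifi202b held none. Ifi209 differed from Ifi214 at 1 of the 10 positions, G1T counted from the 5′ end of the motif, and kept the shorter core AANNGAAA of interferon regulatory factors, which overlaps the longer core and occurs in 23.9% of windows. The Aim2 window held neither. The gamma-activated site TTCNNNGAA, present in 8.3% of windows, was in none of the members' windows. A match describes the letters and not a bound site, and a missing match says nothing of what binds there.

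The deposited values are intensities on a linear scale, and differences are given on the log2 scale, where 1 is a 2-fold difference. The baseline arrays had median intensities of 194.8 and 183 over all rows, the 2 h array 176.2 and the 8 h array 199.5. Tested genes differed from baseline by a median of 0.06 at 2 h and of −0.16 at 8 h, and the median of 8 h against 2 h was −0.25. Among the 9053 genes set aside as dim, the median difference of 8 h from 2 h was 0.36, so dim rows were higher and brighter rows lower on the 8 h array. The labels leave unsaid if the pair of baseline arrays came from separate mice or cultures. Tests therefore rest on the spread between 2 arrays that may be technical, and the same spread was taken for each lone IFNa array. On simulated data of this design the share of false calls was above the nominal level in most draws and far above it in some, so a call at an adjusted p under 0.05 may carry more than the stated error. Cd4 lay above the array median on all 4 arrays, as did the 6 other rows of the T cell list (Cd3d, Cd3e, Cd3g, Cd5, Cd28 and Thy1), which CD8 cells share. Of the CD8 markers, Cd8b1 also lay above it on all 4 arrays, with log2 values of 9.78 and 9.68 on the baseline pair, then 9.57 at 2 h and 9.87 at 8 h, and Cd8a on 2 arrays. Of the marker rows of other cells, 2 of 8 for macrophages (Lyz2 and Cd68), 5 of 6 for B cells and none of 6 for dendritic cells did so. The summed intensity of the 8 macrophage rows was 1309 and 1109 on the baseline pair, then 961.4 at 2 h and 1125 at 8 h. That of the 6 B cell rows was 2614 and 2586 on the baseline pair, then 2452 at 2 h and 3205 at 8 h. The part of such cells in the members' values was not tested, and in bulk samples fewer cells of a type and less RNA per cell cannot be told apart.

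**Figure D1:**
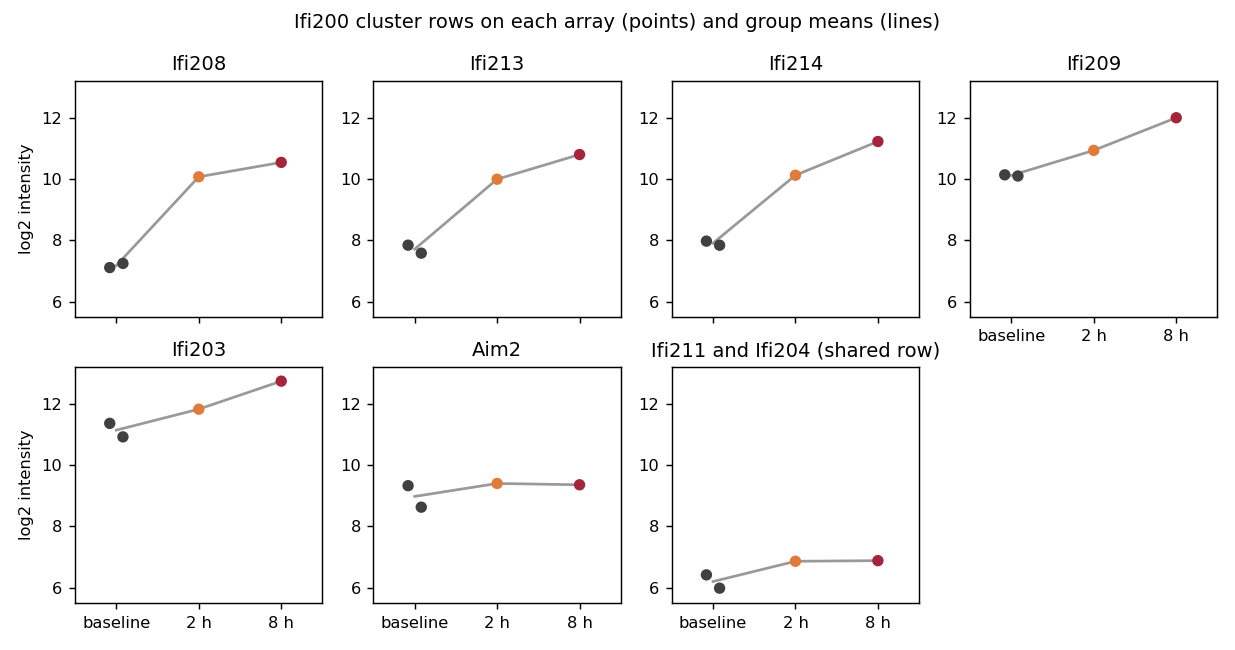
Log2 intensity of each cluster row on every array (points; the pair of baseline arrays at the left, then 2 h and 8 h of IFNa), with lines through the baseline mean and the lone IFNa arrays. Ifi208, Ifi213 and Ifi214 climbed most by 2 h, Ifi209 and Ifi203 gained more after 2 h than before it, Aim2 stayed near its higher baseline array, and the row shared by Ifi211 and Ifi204 lay 0.66 and 0.68 above its baseline mean at 2 h and 8 h.

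The question asked of the cluster was which members respond by 2 h and which keep climbing to 8 h. At 2 h, 3 of the 6 tested members had risen, Ifi208, Ifi213 and Ifi214 (limma, adjusted p under 0.05 over all 10699 genes). By the same rule 1.09% of all tested genes rose. None of the 6 members fell, against 0.00935% of all tested genes. At 8 h, 5 of the 6 had risen, with Ifi209 and Ifi203 added, against 0.654% of all tested genes, and Aim2 did not pass at either time. Ifi208 entered the test through its IFNa arrays alone. Without it the counts were 2 of 5 at 2 h and 4 of 5 at 8 h. The median difference of the 6 members, Ifi208 included, was 1.52 at 2 h and 2.49 at 8 h. At least 2-fold rises numbered 3 and 5 of 6 members, against 1.77% and 0.57% of all tested genes, and these counts were the same against either baseline array alone. Without Ifi208 the 2-fold rises numbered 2 and 4 of 5 members. After quantile normalization 3.1% and 6.2% of all tested genes were called higher, and 4 and 5 members, Ifi209 being called at 2 h as well. When every row of the table was tested, unnamed and dim ones included, 0 of 24922 rows passed at either time, members included (limma, 4 members at 2 h and 5 at 8 h at an unadjusted p under 0.05).

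Ifi208, listed under the older name Pydc3, had intensities of 138 and 151.6 on the baseline pair, then 1077 at 2 h and 1492 at 8 h. Both IFNa values lay far above both baseline values, which sat under the array median, at percentiles 40.59 and 45.69 of all rows. Ifi208 thus entered the test through the IFNa arrays, where it is high. Its adjusted p-values and ranks below are given as description and support nothing. The 2 h array was higher than baseline by a log2 difference of 2.90 (SE 0.20, 7.44-fold, limma adjusted p = 0.000471), the 9th largest rise of all tested genes. At 8 h the difference was 3.37 (SE 0.20, 10.3-fold, limma adjusted p = 0.00033), the 3rd largest.

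Ifi213, once named Pydc4, gave 229.1 and 191.2 on the baseline pair, then 1020 at 2 h and 1783 at 8 h. Both lone IFNa values lay above both baseline values, which were just above the array median. The difference from baseline was 2.28 at 2 h (SE 0.22, 4.87-fold, limma adjusted p = 0.00173) and 3.09 at 8 h (SE 0.22, 8.52-fold, limma adjusted p = 0.000494). Its promoter is the near copy of that of Ifi208.

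Ifi214 read 251 and 228.9 on the baseline pair, then 1116 at 2 h and 2393 at 8 h. Each step was larger than the gap between the baseline arrays. It stood 2.22 above baseline at 2 h (SE 0.20, 4.65-fold, limma adjusted p = 0.00153) and 3.32 above it at 8 h (SE 0.20, 9.98-fold, limma adjusted p = 0.00033), the 4th largest rise at that time.

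Ifi209, listed under the older names Ifix and Pyhin1, read 1126 and 1096 on the baseline pair, then 1959 at 2 h and 4100 at 8 h. The baseline arrays were nearly equal, and the 2 h value lay above both without passing the test (0.82, SE 0.20, limma adjusted p = 0.145). At 8 h the gene had risen by 1.88 (SE 0.20, 3.69-fold, limma adjusted p = 0.00321). Its promoter is the near copy of that of Ifi214, whose difference at 2 h was 2.22 against 0.82 here. The difference between these genes was not tested.

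Ifi203, another PYHIN gene, gave 2633 and 1940 on the baseline pair, then 3634 at 2 h and 6849 at 8 h. The IFNa values lay above both baseline arrays, which themselves differed by 0.44 (lower on baseline array 2). The 2 h difference of 0.68 did not pass (SE 0.24, limma adjusted p = 0.317) and became 0.46 or 0.90 when a single baseline array was used. The 8 h difference of 1.60 passed (SE 0.24, 3.03-fold, limma adjusted p = 0.0136). Mndal has the near copy of this promoter. No row carried its symbol, and if its transcript adds signal to the row of Ifi203 was not tested.

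Aim2, the DNA-binding inflammasome sensor, gave 642.9 and 395.2 on the baseline pair, then 676.1 at 2 h and 656 at 8 h. Both IFNa values lay just above baseline array 1 and clearly above baseline array 2. The difference from the baseline mean was 0.42 at 2 h (SE 0.29, limma adjusted p = 0.585) and 0.38 at 8 h (SE 0.29, limma adjusted p = 0.44). Against baseline array 1 alone it was 0.07 at 2 h and 0.03 at 8 h, and against baseline array 2 alone it was 0.77 and 0.73. The gap between the baseline arrays, 0.70, was wider than either difference.

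The row shared by Ifi211 and Ifi204 was dim. Ifi204 encodes a DNA-binding protein often compared with human IFI16, and the row read 85.41 and 63.15 on the baseline pair, then 116.1 at 2 h and 117.8 at 8 h. The IFNa arrays lay above both baseline arrays, by 0.66 at 2 h and 0.68 at 8 h over their mean, with no test since the row names more than 1 gene. It stayed at percentiles 22.28 to 40.16 of all rows on the 4 arrays.

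**Figure D2:**
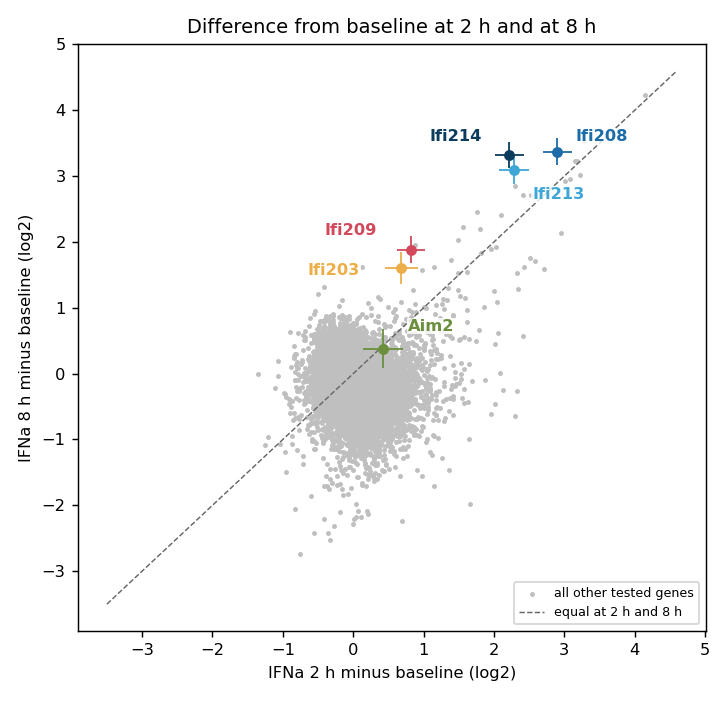
Log2 difference from the baseline mean at 2 h (x axis) and at 8 h (y axis) for all 10699 tested genes in grey and the 6 members in colour, with bars of 1 moderated SE. Both axes use the same baseline arrays. Ifi214, Ifi213, Ifi209, Ifi203 and Ifi208 lie above the dashed line of equal difference, and Aim2 lies on it.

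Between 2 h and 8 h, Ifi214 and Ifi209 rose further. These were the 2 of 6 members called higher at 8 h than at 2 h (limma, adjusted p under 0.05), against 1.46% of all tested genes called higher and 10.8% called lower. Ifi214 was higher by 1.10 (SE 0.24, 2.14-fold, limma adjusted p = 0.0281) and ranked 46th among the tested genes. Ifi209 was higher by 1.07 (SE 0.23, 2.09-fold, limma adjusted p = 0.0291) and ranked 58th. Ifi203 stood at 0.91 (SE 0.28, limma adjusted p = 0.0609) and Ifi213 at 0.81 (SE 0.25, limma adjusted p = 0.0633), close to the threshold without passing. Ifi208 stood at 0.47 (SE 0.24, limma adjusted p = 0.183). Aim2 stood at −0.04 (SE 0.33, limma adjusted p = 0.941), a sign that turned to 0.37 after quantile normalization. The row of Ifi211 and Ifi204 stood at 0.02.

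These are differences between 2 single arrays with no replicate check, and their test borrows the spread of the baseline arrays. With no filter on dim rows, neither Ifi214 nor Ifi209 passed (adjusted p = 0.0594 and 0.0614, limma), while after quantile normalization 5 members passed, all but Aim2, against 9.25% of all tested genes called higher. Relative to the median of the tested genes at −0.25, the differences of 8 h from 2 h were 1.35 for Ifi214, 1.32 for Ifi209, 1.17 for Ifi203, 1.06 for Ifi213, 0.72 for Ifi208 and 0.21 for Aim2. At least 1.5-fold rises between 2 h and 8 h numbered 4 of 6 members, against 8.23% of all tested genes.

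**Figure D3:**
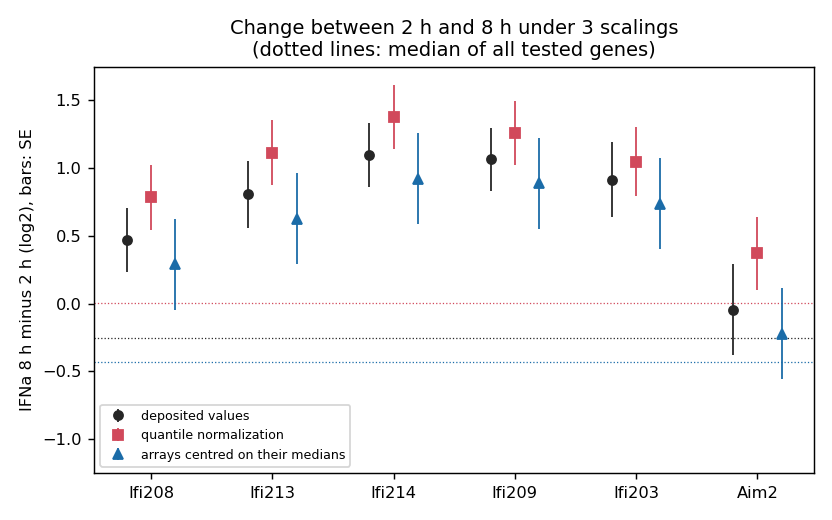
Log2 difference of 8 h from 2 h for each member under the deposited scaling, quantile normalization and centring of arrays on their medians, with bars of 1 moderated SE and dotted lines at the median of all tested genes under each scaling. Ifi214 and Ifi209 have the largest values under all 3 scalings, and Aim2 is the member whose sign turns, from −0.04 to 0.37 after quantile normalization.

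The share of the 8 h gain that was already present at 2 h separated the members further. On the intensity scale this share was 69.2% for Ifi208, 51.5% for Ifi213, 40.7% for Ifi214, 29.5% for Ifi203 and 28.4% for Ifi209. On the log2 scale it was 86.0% for Ifi208, 73.9% for Ifi213, 66.8% for Ifi214, 42.8% for Ifi203 and 43.4% for Ifi209, so the size of the share depends on the scale and the order of Ifi203 and Ifi209 turns. The share is a description with no test, and both gains use the same baseline mean. By the distance between their differences at 2 h and 8 h, Ifi213 and Ifi214 were the closest members (0.24), followed by Ifi203 and Ifi209 (0.31). Ifi208 lay 0.67 from Ifi213 and 0.68 from Ifi214. Of the promoter pairs, Ifi208 and Ifi213 lay 0.67 apart, the smallest distance of Ifi208 to any member. Ifi214 and Ifi209 lay 2.01 apart. Differences between these distances were not tested. Probe and transcript sequences were not compared here, so signal shared between related genes cannot be separated from each gene's own.

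Among tested genes outside the cluster, Oas2 had the profile closest to the mean of the 6 members, which was 1.55 at 2 h and 2.27 at 8 h. No member lay near that mean at 2 h. Ifi208, Ifi213 and Ifi214 stood at 2.22 to 2.90, and Ifi209, Ifi203 and Aim2 at 0.42 to 0.82. A profile close to the mean is thus not close to that of any member. Oas2 stood at 1.57 and 2.23, a distance of 0.05 on the log2 scale over the 3 groups. H2-T24 (distance 0.25), Trim30d (0.26), Tlr7 (0.27) and Slfn8 (0.51) came next. For Ifi214, the member with the largest difference of 8 h from 2 h, the closest was Phf11c at 2.30 and 2.86 (distance 0.47), followed by Dhx58 (0.64), Xaf1 (0.68), Ifit1 (0.88) and Oas3 (0.91). None of these 10 genes passed the test of 8 h against 2 h (limma adjusted p from 0.126 for Oas2 to 0.969 for Slfn8). Of all tested genes, 1.46% were called higher and 10.8% lower, so this absence does not set the 10 genes apart. Phf11c, at 0.55, had the largest difference among the 5 closest to Ifi214, whose own was 1.10. Since Ifi214 was picked for this difference, the comparison is a description and supports nothing.

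The genes on either side of the cluster were dim on all 4 arrays. In the order of the RefSeq gene table, the 8 genes with a row of their own on the side of Aim2 were olfactory receptors, Fcer1a and Ackr1. The 8 on the side of Ifi205 were all olfactory receptors or a pseudogene of one. None of the 16 could be tested. They differed from baseline by −0.61 to −0.06 at 2 h and by −0.35 to 0.48 at 8 h. The median over all dim genes was −0.16 at 2 h and 0.19 at 8 h. Within the cluster, further PYHIN genes were dim as well. Ifi207 read 90.18 and 56.79 on the baseline pair, then 88.01 at 2 h and 113 at 8 h, so that only the 8 h value lay above both baseline arrays. Ifi202b, whose protein has HIN domains without a pyrin domain and restrains Aim2, read 18.36 and 19.28 on the baseline pair, then 17.42 at 2 h and 19.06 at 8 h. Ifi205 read 45.08 and 28.11 on the baseline pair, then 28.82 at 2 h and 28.63 at 8 h, within the range of the baseline arrays. Ifi206 and Ifi211 had no row of their own.

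**Figure D4:**
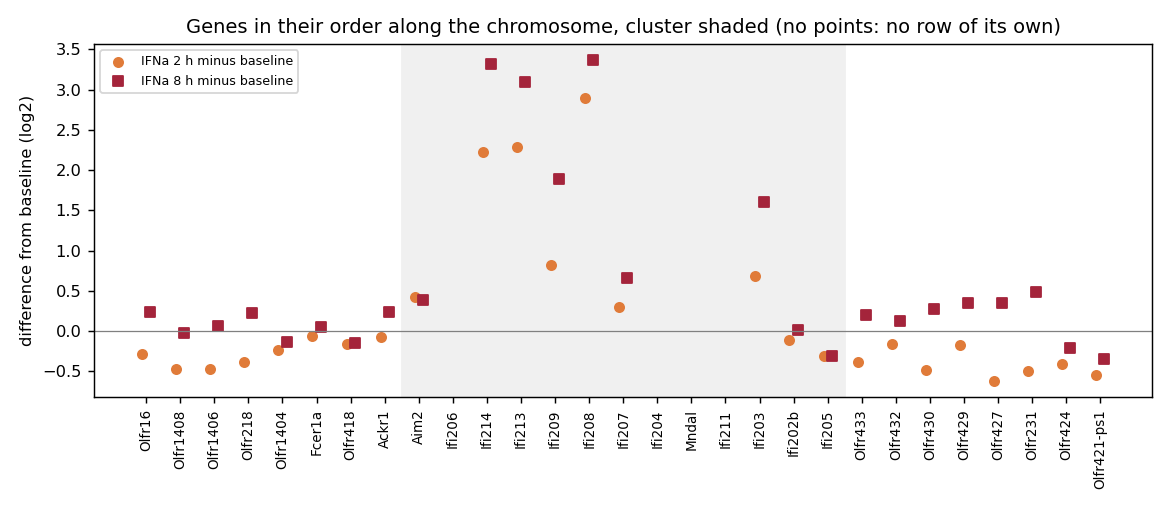
Log2 difference from baseline at 2 h (circles) and 8 h (squares) for the genes in their order along chromosome 1, the cluster shaded, with equal spacing in place of distance. Ifi214, Ifi213, Ifi209, Ifi208 and Ifi203 stand between 1.60 and 3.37 at 8 h, and the 16 neighbours between −0.35 and 0.48.

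Genes of cytosolic DNA sensing and the inflammasome, the pathways in which Aim2 acts, made up a list of 34. Of these, 25 were tested, and none was called at 2 h by limma (4 at an unadjusted p under 0.05). Of all tested genes, 1.09% were called higher at 2 h and 0.654% at 8 h. With shares this small, an absence of rises among 25 genes does not set the list apart. Shares of all tested genes at an unadjusted p were not counted. At 8 h none rose and 1 fell, against 3.35% of all tested genes called lower. At an unadjusted p under 0.05 (limma) there were 6 genes at 8 h. Zbp1 (0.60) and Trim56 (0.52) were higher, and Xrcc5, Xrcc6, Mre11a and Rad50 lower. The list medians were 0.17 at 2 h and −0.05 at 8 h, beside 0.06 and −0.16 for all tested genes. The gene called lower at 8 h was Xrcc5, a subunit of the Ku complex that binds DNA ends (−0.92, SE 0.20, limma adjusted p = 0.0461). Pycard, the adaptor of Aim2, stood at −0.18 at 2 h and 0.46 at 8 h (limma adjusted p = 0.756 and 0.229). Casp1, the protease of the inflammasome, was dim on all arrays, with log2 values of 6.01 and 5.81 on the baseline pair, then 6.42 at 2 h and 6.14 at 8 h.

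In the branch that signals through Sting1, Cgas, which makes the second messenger of DNA sensing, stood at 0.68 at 2 h and −0.07 at 8 h (limma adjusted p = 0.277 and 0.875). Sting1 itself stood at 0.15 and 0.08, the kinase Tbk1 at 0.59 and −0.05, and the transcription factor Irf3 at −0.22 and −0.17, none past the test. Against 2 h, 3 of the 25 genes were called lower at 8 h and none higher, near the 10.8% of all tested genes called lower. They were Xrcc5 (−1.03, SE 0.23, limma adjusted p = 0.0316), the DNA repair nuclease Mre11a (−0.91, SE 0.24, limma adjusted p = 0.044) and the inflammatory caspase Casp4, with log2 values of 7.38 at 8 h and 8.38 at 2 h (SE of the difference 0.25, limma adjusted p = 0.0411). Casp4 was above the array median at 2 h alone and entered the test through that array, so its call supports nothing. Cgas too was above the array median at 2 h alone, and its difference at 2 h supports nothing either. Both are among the 4 genes of the list at an unadjusted p under 0.05 at 2 h (limma).

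**Figure D5:**
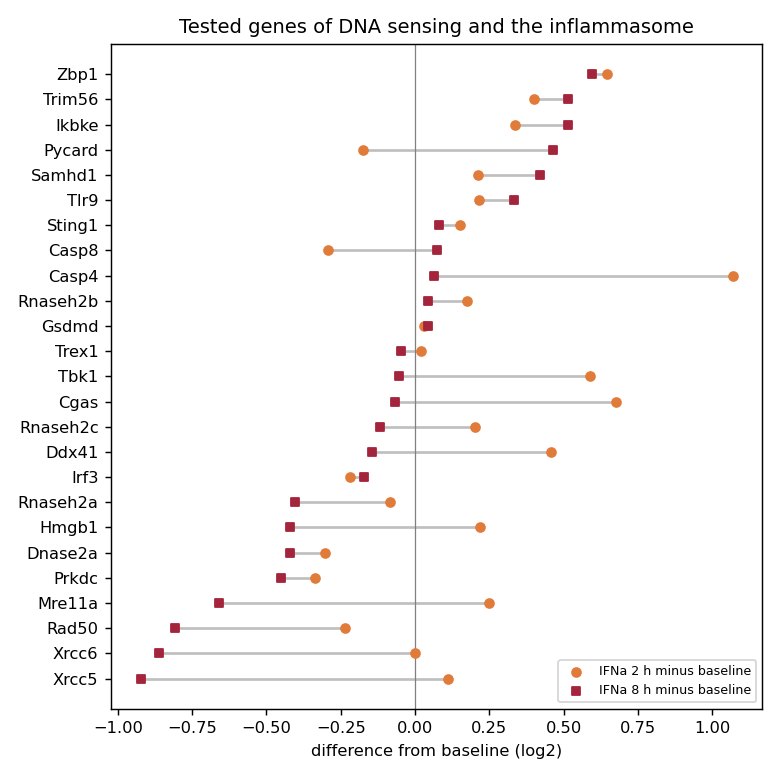
Log2 difference from baseline at 2 h (circles) and at 8 h (squares) of the 25 tested genes of DNA sensing and the inflammasome, ordered by the 8 h value. Xrcc5, at the bottom with −0.92, is the gene that fell at 8 h, and Casp4 is the farthest to the right at 2 h, at 1.07.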

How the data were processed

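The members, gene lists and tests were chosen with earlier results of these data known. RNA of each sample was hybridised to an Affymetrix Mouse Gene 1.0 ST array. Values are RMA intensities on a linear scale, as deposited. The submitters' processing notes name Affymetrix Power Tools and RMA. Which arrays were processed together and the genome build are not given in the sources used here. Log2 was taken with no pseudocount.

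Rows with 1 gene symbol in the platform annotation were used (21425 of 24922), the row with the highest mean for each gene. A RefSeq table of GRCm38.p6 was used to update symbols and changed 0 of them. Genes above the array median on at least 1 array entered the test, which used R 4.3.3 and its package limma 3.58.1, with all 4 arrays in 1 fit with a mean per group, two-sided, with Benjamini-Hochberg adjustment at 0.05. The spread came from the 2 baseline arrays (1 residual degree of freedom), moderated by limma's prior (SD 0.175, weighted as 7.46 degrees of freedom). The fit was tested on simulated data, where the estimated prior varied between draws and the share of false calls exceeded the nominal level in most of them, so the adjusted p-values may be too small. SEs are the moderated ones. The number of arrays limits the precision. Alternatives were other scalings, filters, priors, row choices, thresholds and each baseline array alone.

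The named genes were all members, the other PYHIN genes of the locus, up to 8 neighbours on each side, called members of the DNA sensing list with 6 fixed ones, and the 5 closest profiles by Euclidean distance to the members' mean and to the member with the largest difference of 8 h from 2 h.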

Additional observations from a re-analysis of the deposited data

Results flagged for a closer look

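The differences from baseline at 2 h and at 8 h differed from each other in 2 members by the test of that difference. Ifi209 was higher at 8 h than at 2 h by 1.07 on the log2 scale (adjusted p = 0.0291, limma). Ifi214 was higher by 1.10 (adjusted p = 0.0281, limma). Each value is 1 array against 1 array.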

How the results depend on the processing

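With all rows of the table tested, limma called none of the 6 members at 2 h, at 8 h or at 8 h against 2 h (0 each, with 4, 5 and 4 at an unadjusted p under 0.05). For 8 h against 2 h the count of 2 became 5 after quantile normalization, 0 with no filter (4 at an unadjusted p under 0.05) and 4 at an adjusted p under 0.1. Other settings gave 2 or 3. The cause of these shifts was not tested. Of all tested genes, 1.46% were called higher at 8 h than at 2 h as deposited. That share was 9.25% after quantile normalization, 0.101% with no filter and 6.34% at an adjusted p under 0.1. Shares of all tested genes at an unadjusted p under 0.05 were not counted. At 2 h the other settings gave 3 or 4 members and at 8 h 5 in each. Under these settings 0.425% to 3.1% of all tested genes were called higher at 2 h, and 0.213% to 6.2% at 8 h. The counts of at least 2-fold rises were 3 at 2 h and 5 at 8 h without either baseline array. All these counts of members at 2 h and at 8 h include Ifi208, which entered the main test through its IFNa arrays alone. The tally for single members leaves out the test of all rows, where no member was called. It also leaves out the threshold of 0.1, where Ifi203 and Ifi213 newly passed at 8 h against 2 h. In this tally, 136 tested alternative values kept direction and side of the threshold. A further 24 values without a baseline array, which have no test, kept their direction. Of the rest, 5 passed newly and 2 no longer passed (Ifi209 and Ifi214 with no filter). The last 1 reversed, Aim2 at 8 h against 2 h, with 0.37 after quantile normalization. Median differences of 8 h from 2 h over all tested genes were −0.25 as deposited, 0.00 after quantile normalization and −0.43 with centred arrays. Over all tested genes, 117 were called higher and 1 lower at 2 h as deposited, and 332 and 109 after quantile normalization. At 8 h these counts were 70 and 358, and 663 and 900. At 8 h against 2 h they were 156 and 1155, and 990 and 1316, with 72 and 2315 for centred arrays. No paired analysis was possible, since each IFNa time has 1 array. The groups share only replicate number 1, which was not taken to mark a common mouse or culture.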
